A study of Mus musculus with 8 samples.

Results

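The S100a genes encode small calcium-binding proteins of the EF-hand type. The 8 genes described here are S100a1, S100a4, S100a6, S100a8, S100a9, S100a10, S100a11 and S100a13. They are a chosen set of genes with S100a symbols, among the 39107 genes with at least 1 count. Other genes with S100a symbols (S100a2, S100a3, S100a5, S100a7a, S100a14 and S100a16) are not among the 8. These others had at most 169 counts over all libraries and are described near the end. Each of the 8 had at least 293 counts in each library, so all passed the filter on low counts that left 21902 genes for testing. RNA was sequenced from long-term hematopoietic stem cells (LT-HSCs) sorted from bone marrow, the cells that rebuild blood over the life of a recipient. One group was 4 homozygous asrij floxed mice, which still carry the gene and served as controls (libraries 1, 3, 4 and 5). The other was 4 whole-body asrij KO mice, in which the gene, also named Ociad1, is lost in every tissue (libraries 2, 3, 4 and 5). All mice were 6 months old by the labels, both genders were used for the study's experiments, and each mouse gave 1 library. The study's methods name C57BL/6J as the wild-type strain. A whole-body deletion also acts outside the stem cells.

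S100 proteins work mainly as dimers that change shape on binding calcium and then attach to a target protein. S100a8 and S100a9 form calprotectin, an abundant protein pair of the neutrophil cytosol, which is released in inflammation and acts on Toll-like receptor 4 and the receptor Ager. The other members act mostly inside the cell, where S100a10 and S100a11 attach to annexins at membranes, S100a4 to the non-muscle myosin Myh9 and S100a6 to Cacybp. S100a13 takes part in the export of Fgf1 and Il1a, and S100a1 acts on calcium pumps and release channels of muscle. In bulk RNA, fewer cells of a type and less RNA per cell cannot be told apart.

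All 8 genes lie on chromosome 3 (GRCm38). From S100a1 to S100a9, 6 members sit with 10 other genes in 184688 bases (chr3:90511034-90695721). S100a11 and S100a10 sit in a second stretch of 44156 bases (chr3:93520488-93564643), with 1 pseudogene that had 2 counts in all. S100a1 and S100a13 are transcribed away from each other, with 42 bases between their GENCODE starts. The reference bases ahead of the RefSeq starts are shown because neighbours in this cluster differed greatly in level. The RefSeq start can lie inside the GENCODE transcript counted here. It is at 90514330 against 90514392 for S100a1 and at 90669071 against 90668978 for S100a8, so the first window printed for each lies within that transcript. The end of the S100a6 window also reaches its GENCODE start (90612882). For the 7 members other than S100a10, each line gives bases 40 to 11 before the RefSeq start (GRCm38.p6), 5′ to 3′ on the gene's strand, with TATAAA in capitals where present.
S100a8, chr3:90669031-90669060, plus strand: agctttcctcTATAAAagcagctgacactt
S100a9, chr3:90695732-90695761, minus strand: atcttccccgagataaccatgtatctaaca
S100a4, chr3:90603730-90603759, plus strand: ctggcagggTATAAAtaggtcagattgttg
S100a6, chr3:90612854-90612883, plus strand: ggacactgctctcgggctggcagaaggttc
S100a11, chr3:93520456-93520485, plus strand: cctgagtcaggctgaggggcgggacccgga
S100a1, chr3:90514341-90514370, minus strand: tcctggcccttagccctttgggtgtcgttt
S100a13, chr3:90514395-90514424, plus strand: ccaggagggaaggggctgtcctgtgtttct

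TATAAA stood in this window in S100a8 and S100a4, against 2.08% of all 32851 RefSeq windows. For S100a9, GENCODE lists a second start 10 bases downstream, and TATAAA begins at the first base of the upstream one, as the 30 bases across it show (capitals, TATAAA).
S100a9, chr3:90695702-90695731, minus strand: aggagctgccTATAAAtactgggcttacac

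The 250 bases before each of these 7 starts were also searched on both strands for letters bound by factors of myeloid or broad promoters, a choice made after the data had been seen. TTGCNNAA, bound by C/EBP factors, was found in 9.56% of all windows and among the 7 members searched in S100a9 alone, as TTGCTTAA 236 bases before the start. GAGGAA, bound by PU.1, was in 23.3% of windows, and matched S100a8 170 and 36 bases before the start on the other strand and S100a11 153 bases before it. S100a11 also held TGAGTCA, a match to the AP-1 letters TGANTCA (6.75% of windows), 136 and 38 bases before the start, and GGGCGG (32.7% of windows) at 3 positions. S100a9 held GGGCGG once, and S100a1, S100a6 and S100a13 held none of these letters. These matches describe the sequence and not the binding of a factor.
Upstream bases of the calprotectin genes, which had the highest levels, are printed from different windows, 250 to 101 bases before the start for S100a8 and 150 to 1 bases before it for S100a9. Capitals mark the S100a8 PU.1 match at 170 bases before the start, on the other strand, and the S100a8 match at 36 bases and the S100a9 matches lie outside these windows.
S100a8, chr3:90668821-90668970, plus strand: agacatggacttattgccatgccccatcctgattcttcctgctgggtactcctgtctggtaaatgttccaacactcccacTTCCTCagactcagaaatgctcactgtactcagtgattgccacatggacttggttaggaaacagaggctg
S100a9, chr3:90695722-90695871, minus strand: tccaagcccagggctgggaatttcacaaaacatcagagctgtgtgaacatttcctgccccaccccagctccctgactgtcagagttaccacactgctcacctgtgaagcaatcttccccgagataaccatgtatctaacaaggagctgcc

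The libraries held 23412829 to 44874882 gene counts. Counts were scaled by TMM, which corrects library size for differences in composition, and are given as CPM, the count of a gene scaled to a fixed library total. Ociad1, the deleted gene, was at 31.4 to 66.9 CPM in floxed and 11.7 to 19.7 CPM in KO libraries (log2 fold change -1.58, adjusted p = 0.0249 by edgeR's quasi-likelihood test). The 12 listed markers of the sorted stem cells differed in level. Some were low or near 0, with Slamf1 at 0.881 to 4.40 CPM, Procr at 0.142 to 0.962 CPM and Hoxb5 at 0 to 0.256 CPM. Mecom (0.498 to 2.86 CPM) and Fgd5 (0.158 to 1.09 CPM) were low too. Ly6a was at 4.29 to 15.2 CPM, Hlf at 5.002 to 10.63 CPM and Meis1 at 6.09 to 11.99 CPM. Flt3 was at 11.3 to 24.4 CPM and Cd34 at 17.5 to 36.7 CPM. Kit was at 46.8 to 60.2 CPM. Cd48, whose product the study's methods name as present on the sorted cells for sequencing and absent in its other LT-HSC assays, was at 35.2 to 55.2 CPM. Floxed library 3 and the libraries numbered 4 and 5 stood apart from the rest, and results that rest on them are given with and without them. No source says that a number marks a batch.

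The members differed widely in level. By CPM per kilobase of spliced transcript, the scale on which genes can be compared, S100a9 ranked at position 5 and S100a8 at position 6 of the 21902 genes tested. S100a11 (255) and S100a6 (282) came next, then S100a4 (1241), S100a10 (1358), S100a13 (4816) and S100a1 (5997). In floxed mice S100a9 was at 19980 ± 7347 and S100a8 at 12060 ± 3994 CPM per kilobase (SD, n = 4). On this scale S100a9 exceeded S100a8 in each of the 8 libraries, although their ranges over the floxed mice overlapped. S100a11 (376 ± 187) and S100a6 (312 ± 156) also overlapped, as did S100a4 (83.3 ± 35.5) and S100a10 (72.2 ± 27.1). S100a13 was at 20.5 ± 6.76 and S100a1 at 15.3 ± 4.82. The values of each of these pairs lay apart from those of the next, except that S100a6 in floxed 3 (107.6) was below S100a4 in floxed 4 (113.0). In KO mice the order was the same except that S100a6 (281 ± 24.2) and S100a11 (273 ± 146) changed places. Because the deposited counts cover introns too, the length that fits them is uncertain. Per kilobase of genomic span S100a8 stood above S100a9 in both genotypes (5541 ± 1835 against 3356 ± 1234 in floxed mice).

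**Figure D1:**
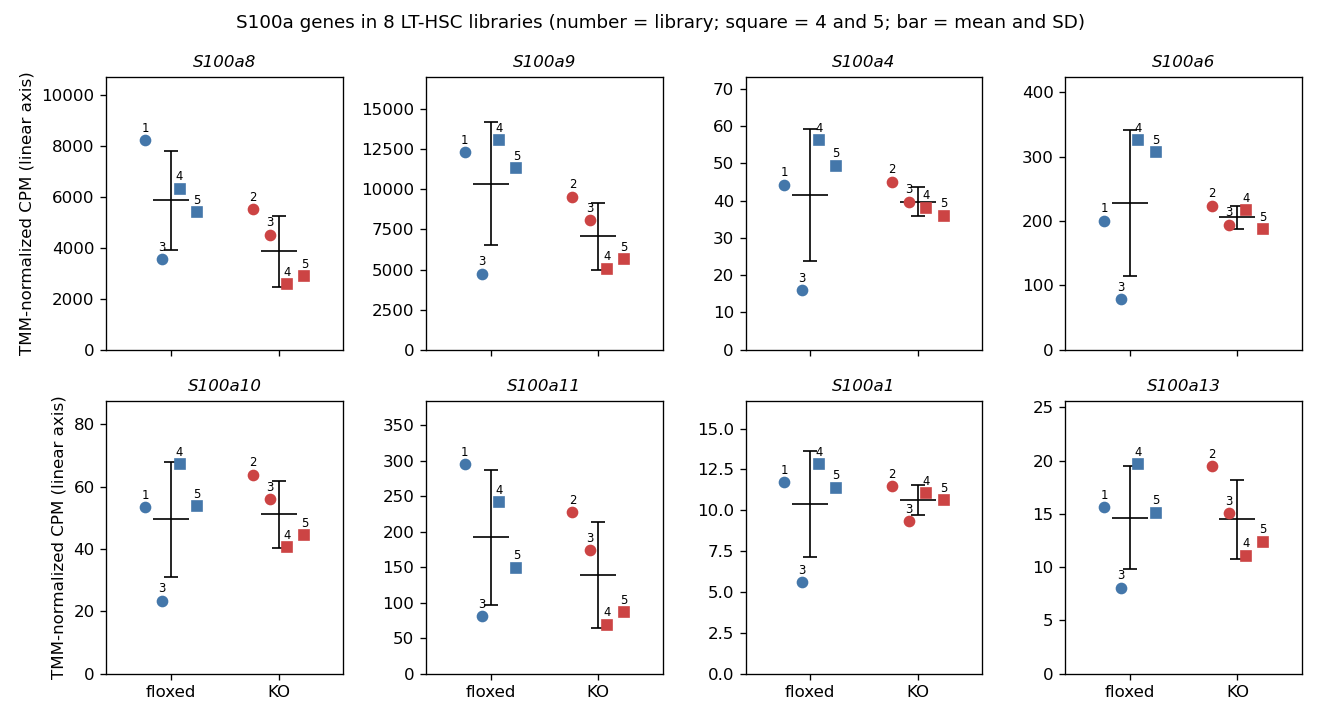
TMM-normalized CPM (linear axis, one scale per gene) of the 8 S100a genes in 4 floxed (blue) and 4 KO (red) libraries, with the library number beside each point, squares for numbers 4 and 5, and bars for the mean and SD. Floxed 3 is the lowest floxed library in every panel, and KO 4 and 5 lie below KO 2 and 3 for S100a4, S100a8, S100a9, S100a10, S100a11 and S100a13.

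S100a8, the calcium- and zinc-binding chain that pairs with S100a9, was at 8214, 3550, 6305 and 5382 CPM in floxed 1, 3, 4 and 5. It was at 5510, 4505, 2557 and 2872 CPM in KO 2, 3, 4 and 5. The highest value was a floxed and the lowest a KO library, but the genotypes overlapped. The means were 5863 ± 1941 CPM in floxed mice against 3861 ± 1392 CPM in KO (SD, n = 4). S100a8 had a log2 fold change of -0.60 ± 0.35 (SE, edgeR, adjusted p = 0.360), the lowest estimate of the family.

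S100a9, the larger calprotectin chain, was at 12310, 4751, 13080 and 11330 CPM in floxed 1, 3, 4 and 5. The KO libraries had 9545, 8085, 5064 and 5633 CPM. Apart from floxed 3, the lowest of all 8, each floxed library exceeded each KO library. The log2 fold change was -0.55 ± 0.38 (SE, edgeR, adjusted p = 0.440), from means of 10370 ± 3813 and 7082 ± 2102 CPM (SD, n = 4).

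S100a8 and S100a9 together took 0.978% to 2.25% of all gene counts in floxed and 0.666% to 1.502% in KO libraries. Leaving both out of the library sizes and scaling factors left the number of genes called at 261. S100a9 had 1.498, 1.34, 2.08 and 2.11 counts for each S100a8 count in floxed 1, 3, 4 and 5. In KO 2, 3, 4 and 5 the ratio was 1.73, 1.79, 1.98 and 1.96. The ratio was thus 1.59 ± 0.21 in the libraries numbered 1 to 3 and 2.03 ± 0.071 in those numbered 4 and 5 (SD, n = 4), without overlap, while the genotypes overlapped. This split was seen in the data and carries no test.

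**Figure D2:**
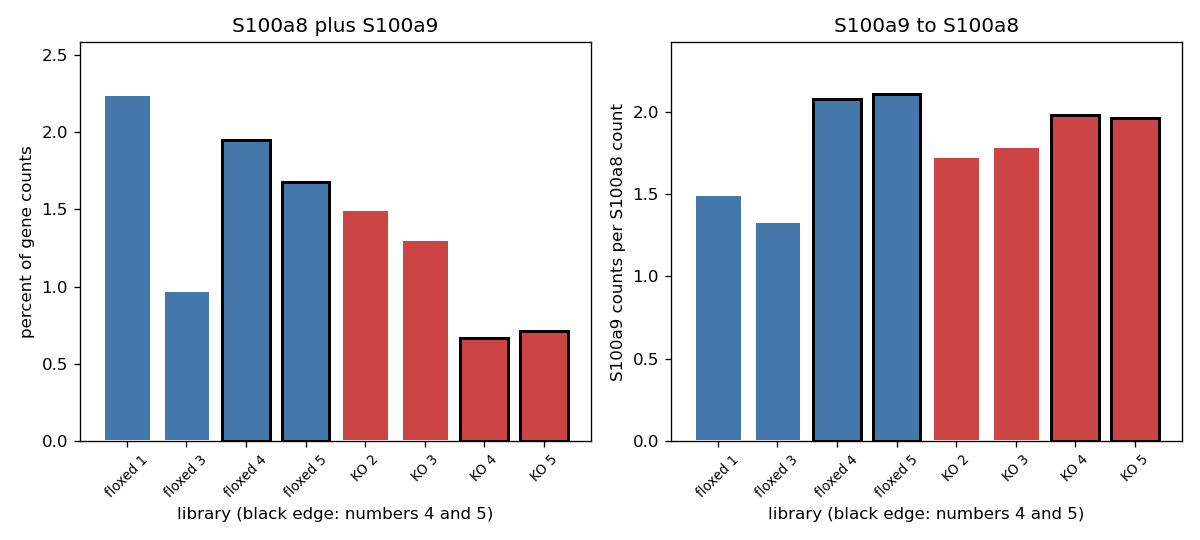
Left, S100a8 plus S100a9 as percent of gene counts; right, S100a9 counts for each S100a8 count; bars are single libraries of floxed (blue) and KO (red) mice, black-edged for numbers 4 and 5. The ratio is 1.96 to 2.11 in numbers 4 and 5 and 1.34 to 1.79 in the others, in both genotypes.

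Of the cytoskeletal members, S100a4, which binds myosin in moving cells, was at 44.3, 16.02, 56.3 and 49.4 CPM in floxed 1, 3, 4 and 5. The KO libraries had 45.1, 39.7, 38.1 and 36.0 CPM. The floxed values enclosed the KO values on both sides. S100a6 (calcyclin) was at 200.5, 78.6, 325.8 and 307.0 CPM in floxed and 223.8, 194.2, 217.2 and 187.1 CPM in KO libraries. Here too the KO values lay within the floxed range, with an SD of 17.7 CPM in KO against 114 CPM in floxed mice. The log2 fold change was -0.06 ± 0.32 for S100a4 (edgeR, adjusted p = 0.938) and -0.15 ± 0.37 for S100a6 (edgeR, adjusted p = 0.853). The S100a4 value is uncertain because Gm42674 overlaps it on the same strand, and the counts of Gm42674 came to 92.8% of those of S100a4, so the same reads may be counted on both.

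Of the annexin-binding members, S100a10 does not respond to calcium and joins Anxa2 in a complex at the plasma membrane. It was at 53.4, 23.3, 67.3 and 53.8 CPM in floxed 1, 3, 4 and 5 and at 63.8, 56.0, 40.4 and 44.3 CPM in KO 2, 3, 4 and 5. S100a11, a partner of Anxa1 and Anxa2, was at 295.6, 81.2, 242.0 and 149.5 CPM in floxed and 228.0, 173.8, 69.1 and 86.4 CPM in KO libraries. Both genes overlapped between genotypes. In KO mice, numbers 4 and 5 were below numbers 2 and 3 for both. S100a11 ranged most widely of the members, 4.28-fold from KO 4 to floxed 1. The log2 fold changes were 0.05 ± 0.30 for S100a10 (edgeR, adjusted p = 0.946) and -0.46 ± 0.46 for S100a11 (edgeR, adjusted p = 0.612).

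The neighbours S100a1 and S100a13 were the least abundant. S100a1, known mainly from heart and skeletal muscle, was at 11.7, 5.58, 12.8 and 11.4 CPM in floxed and 11.5, 9.34, 11.03 and 10.6 CPM in KO libraries. S100a13 was at 15.7, 8.06, 19.7 and 15.1 CPM in floxed and 19.4, 15.1, 11.1 and 12.4 CPM in KO libraries. Both were lowest in floxed 3. S100a1 was otherwise nearly level, between 9.34 and 12.8 CPM. The log2 fold changes were 0.03 ± 0.25 for S100a1 (edgeR, adjusted p = 0.958) and -0.01 ± 0.28 for S100a13 (edgeR, adjusted p = 0.990).

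The comparison of genotypes asked whether loss of asrij changed these genes. No member was called at an adjusted p under 0.05 and an absolute log2 fold change over 1.5, 0 of 8 against 1.19% of all genes tested (261 genes). At adjusted p alone it was also 0 of 8, against 2.97%. At an unadjusted p under 0.05 the count was 0 of 8 by edgeR, DESeq2 and limma-voom, against 21.8% of all genes by edgeR. The genotypes overlapped for all 8 members, while they did not for 14.8% of all genes. The median log2 fold change was -0.11 over the members and -0.01 over all genes. With the replicate number as a block (numbers 3 to 5, which occur in both genotypes), 44 genes and no member were called, against 23 genes in the same 6 libraries without the block.

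The share of the floxed spread that came with floxed 3 differed between members. Without it the floxed SD of S100a9 was 876 CPM in place of 3813 CPM, but that of S100a8 was 1445 in place of 1941 CPM and that of S100a11 was 73.9 in place of 95.4 CPM. Floxed 3 was the lowest of the 8 libraries for 6 of 8 members, all but S100a8 and S100a11, against 21.1% of all genes. Its level was 0.256 (S100a6) to 0.563 (S100a8) of the median of the other floxed libraries, with a median of 0.410 over the members and 1.06 over all genes. In the same library the summed CPM of 16 neutrophil markers was 11910, against 33590 to 41390 in the other floxed libraries, and their part in the result was not tested.

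Without floxed 3, the estimates were negative for all 8 members (-0.78 for S100a9 to -0.16 for S100a1, median -0.37, against 0.04 over all genes). None of the 8 passed at adjusted p, against 17.5% of all genes, and the smallest adjusted p was 0.0605 (S100a9, edgeR). At an unadjusted p under 0.05 the count was 4 of 8, namely S100a4, S100a6, S100a8 and S100a9, against 31.1% of all genes. S100a9 was then the only member whose genotypes did not overlap, with KO below floxed, a pattern of 15.2% of all genes.

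The libraries numbered 4 and 5 were then compared with those numbered 1 to 3, with genotype in the model. By edgeR 0 of 8 members passed at adjusted p, against 30.7% of all genes, and 0 passed unadjusted, against 42.5%. DESeq2 and limma-voom gave 0 as well in both counts. With no filter beyond 1 count, edgeR gave 1 member higher and 1 lower in numbers 4 and 5 at adjusted p, against 19.7% of all genes, and 3 unadjusted. Without floxed 3, 3 members were lower in numbers 4 and 5, against 21.3% of all genes. These were S100a11 (log2 difference -1.06 ± 0.20, adjusted p = 0.000954), S100a8 (-0.72 ± 0.12, adjusted p = 0.000383) and S100a9 (-0.44 ± 0.14, adjusted p = 0.0258), by edgeR.

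Within numbers 4 and 5, 2 KO against 2 floxed libraries, 7 of 8 members were lower in KO at adjusted p by edgeR, against 16.5% of all genes tested there. The log2 fold changes were -1.34 ± 0.20 for S100a11, -1.20 ± 0.11 for S100a9 and -1.11 ± 0.11 for S100a8. S100a6 (-0.65 ± 0.10), S100a13 (-0.57 ± 0.16), S100a10 (-0.52 ± 0.13) and S100a4 (-0.52 ± 0.11) followed. S100a1 did not pass (-0.17 ± 0.14, edgeR, adjusted p = 0.416), and no member reached the fold threshold, against 1.8% of all genes lower. The member median was -0.61, against 0.00 over all genes.

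Within numbers 1 to 3, 0 of 8 passed at adjusted p or unadjusted, against 0.00855% and 17.7% of all genes by edgeR. There 7 of 8 estimates were positive, up to 0.65 for S100a10, and S100a8 had -0.22 ± 0.54. This comparison holds floxed 3 as 1 of its 2 floxed libraries. The difference between the genotype effects of the number groups was negative for all 8 members, -1.42 (S100a11) to -0.43 (S100a1). It passed at adjusted p for none, against 0% of all genes by edgeR, and 3 members passed unadjusted (S100a6, S100a10 and S100a13), against 8.51%. DESeq2 and limma-voom also gave 0 members at adjusted p, with 5 and 4 unadjusted, against 1938 and 1581 of the 21902 genes. The within-number results are therefore not shown to differ from each other.

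With floxed 3 left out and the number group in the model, 4 of 8 members were lower in KO at adjusted p by edgeR, against 20.3% of all genes. They were S100a8 (-0.94 ± 0.12, adjusted p = 4.04e-05), S100a9 (-0.90 ± 0.14, adjusted p = 0.000266), S100a11 (-1.02 ± 0.20, adjusted p = 0.00114) and S100a4 (-0.32 ± 0.11, adjusted p = 0.0369). S100a6 had an adjusted p of 0.0515. This fit was chosen after seeing the data. With the number group in the model of all 8 libraries, 0 of 8 members passed at adjusted p by edgeR, against 4059 of 21902 genes. Leaving out floxed 3 without the number group also gave 0 of 8. The members lower in KO at adjusted p thus depended both on leaving out 1 control mouse and on the number group in the model.

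**Figure D3:**
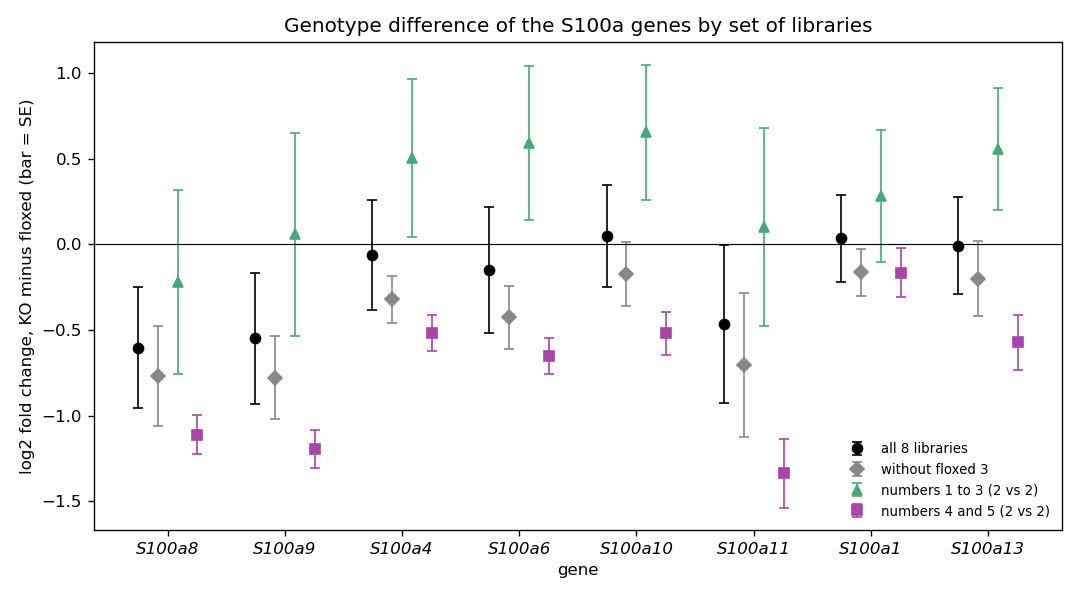
Log2 fold change of KO minus floxed with its SE (edgeR) for the 8 S100a genes in all 8 libraries (black circles), without floxed 3 (grey diamonds), within numbers 1 to 3 (green triangles) and within numbers 4 and 5 (purple squares). In numbers 4 and 5 all estimates lie between -1.34 and -0.17, and in numbers 1 to 3 between -0.22 and 0.65.

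Because calprotectin marks granulocytes, the members were set beside genes of the cell types a sort could hold. The neutrophil markers, 16 genes such as Ltf, Ngp and Camp, gave 0 at adjusted p by edgeR and limma-voom, with a median log2 fold change of -0.61. By edgeR 5 were lower unadjusted, against 21.8% of all genes in either direction. DESeq2 gave 3 lower at adjusted p, but it passed 2447 of all 21902 genes in either direction, against 651 by edgeR. Their summed level was 11910 to 41390 CPM in floxed and 20920 to 21940 CPM in KO libraries. Without floxed 3, 11 of the 16 were lower in KO at adjusted p by edgeR, against 8.64% of all genes, and within numbers 4 and 5 all 16 were, against 16.5%. The 12 monocyte markers had a median of -0.51, with 0 at adjusted p by edgeR (4 lower unadjusted), 0 by limma-voom and 3 lower by DESeq2. By edgeR 9 of the 12 were lower at adjusted p without floxed 3, and 9 within numbers 4 and 5, against the same shares of all genes. At adjusted p, erythroid markers were higher in KO for 3 of 12 by edgeR and limma-voom, against 1.22% of all genes by edgeR. DESeq2 gave 8 of 12, with its larger share of all genes as above. Without floxed 3, edgeR gave 12 of 12, against 8.9% of all genes. In sum the erythroid markers were at 28320 to 71640 CPM in floxed and 123900 to 296400 CPM in KO libraries. By each of the 3 tools 6 of 6 megakaryocyte markers were higher at adjusted p, against 1.22% of all genes by edgeR. The part of any of these cell types in the S100a levels was not tested.

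Each member's CPM was then divided by the summed neutrophil markers of its library. For S100a8, S100a9 and S100a11 the genotypes overlapped in the log2 ratio, with KO minus floxed at -0.21, -0.10 and -0.07. The SDs were 0.53, 0.20 and 0.50 in floxed and 0.53, 0.44 and 0.82 in KO libraries, so equal ratios are not shown. Within numbers 4 and 5, KO was below floxed for S100a9 (-2.12 and -1.92 against -1.66 and -1.77). The same held for S100a8 (-3.10 and -2.89 against -2.71 and -2.84) but not for S100a11. For S100a8 the nearest values, -2.89 in KO 5 and -2.84 in floxed 5, were almost equal. This comparison of 2 against 2 libraries carries no test and has no share over all genes beside it. It does not show a fall beyond that of the neutrophil markers. For S100a4 the log2 ratio was -9.57, -9.54, -9.52 and -9.61 in floxed 1, 3, 4 and 5 and -8.91, -9.04, -9.17 and -9.21 in KO 2, 3, 4 and 5. Floxed 3 fell among the other floxed libraries on this scale, with an SD of 0.039 over the 4. S100a6 was at -7.39 to -6.97 in floxed and -6.83 to -6.60 in KO libraries. For these 2 of 8 members KO lay above floxed without overlap, a pattern of 3.15% of all genes. S100a10, S100a1 and S100a13 had differences of 0.52, 0.50 and 0.42, with overlap. Because the denominator differed between libraries too, a ratio shows unequal change and not a rise of the gene.

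**Figure D4:**
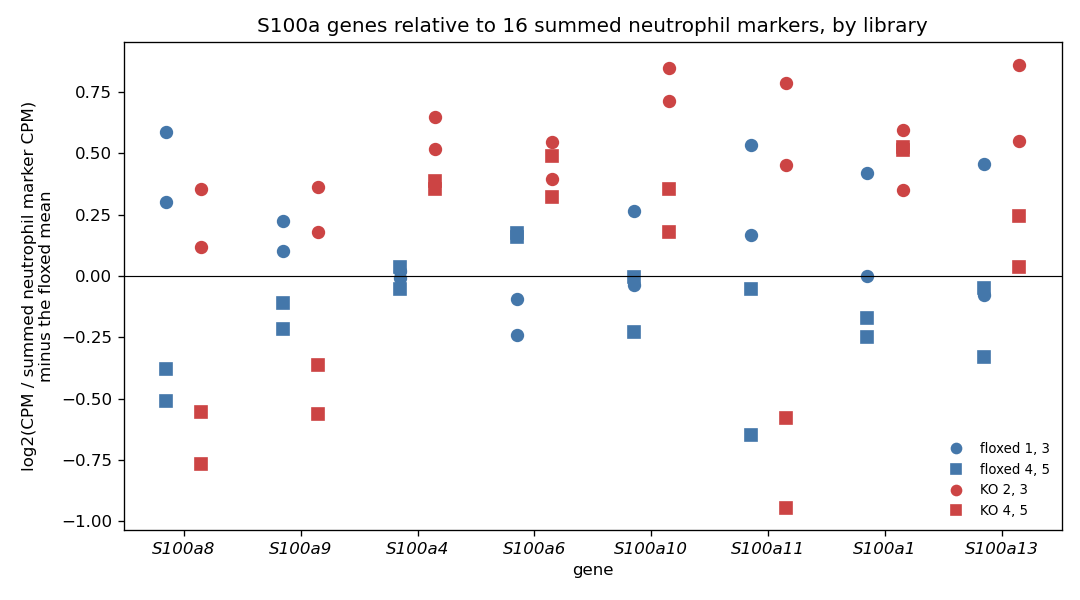
Log2 of each S100a gene's CPM over the summed CPM of 16 neutrophil markers, minus the mean of the floxed libraries, for floxed (blue) and KO (red) libraries, squares for numbers 4 and 5. S100a4 and S100a6 show KO above floxed without overlap. For S100a8, S100a9 and S100a11 the genotypes overlap, and numbers 4 and 5 lie below the others. This split by number was seen in the data, carries no test and has no share over all genes beside it.

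Binding partners and targets of the S100a proteins were read from a list of 15 genes. None passed at adjusted p by edgeR, DESeq2 or limma-voom, against 2.97% of all genes by edgeR, and 3 passed unadjusted by edgeR (Anxa6 in the higher, Ahnak and Ryr2 in the lower direction), against 21.8% of all genes. Without floxed 3, 2 partners were lower at adjusted p by edgeR, against 8.64% of all genes, namely Lcp1 (adjusted p = 0.00340) and Anxa11 (adjusted p = 0.0332), and 0 were higher. Within numbers 4 and 5, 2 were higher and 5 lower, against 16.3% and 16.5% of all genes. The median log2 fold change was -0.18. Anxa2, the partner of S100a10, was at 186 ± 65.2 CPM in floxed mice against 165 ± 35.7 CPM in KO (log2 fold change -0.18 ± 0.28, edgeR, adjusted p = 0.769). Those with the largest estimates were Ryr2, a calcium release channel (-1.40 ± 0.47, edgeR, adjusted p = 0.125), Lcp1, an actin-bundling protein (-0.66 ± 0.31, edgeR, adjusted p = 0.250), Ahnak, a scaffold bound by the S100a10 and Anxa2 complex (-0.62 ± 0.23, edgeR, adjusted p = 0.155), and Anxa6 (0.61 ± 0.20, edgeR, adjusted p = 0.121). Ryr2 was at 0.355 to 1.96 CPM, so its estimate rests on few counts.

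Of 15 tested receptors and signalling genes for extracellular S100 proteins, 1 was higher and 2 were lower in KO at adjusted p by edgeR, against 1.22% of all genes higher and 1.75% lower. DESeq2 gave 1 higher and 3 lower, the third being Cd33 (adjusted p = 0.00218, against 0.0531 by edgeR), where 2447 of all 21902 genes passed in either direction. By limma-voom 1 was higher and 1 lower, where 483 of all genes passed in either direction. Without floxed 3, edgeR gave 2 higher and 6 lower, against 8.9% and 8.64% of all genes, with Cd33 among the lower (adjusted p = 0.00351). Within numbers 4 and 5 it gave 2 higher and 9 lower, against 16.3% and 16.5%. Bsg (basigin, a receptor for S100a9) was at 125.6, 220.7, 150.6 and 161.4 CPM in floxed and 378.1, 327.6, 401.0 and 394.0 CPM in KO libraries. The genotypes did not overlap (log2 fold change 1.19 ± 0.20, edgeR, adjusted p = 0.0248). Bsg is also abundant on red cell precursors, and erythroid markers were higher in the same libraries, whose part in the value was not tested. Tlr4, the Toll-like receptor for calprotectin, was at 53.3, 33.0, 33.7 and 35.3 CPM in floxed and 22.1, 21.5, 16.1 and 18.0 CPM in KO libraries. All KO values were below all floxed values, with a log2 fold change of -0.9996 ± 0.20 (edgeR, adjusted p = 0.0348). Its adaptor Tirap was at 38.2 to 68.7 CPM in floxed and 29.0 to 34.7 CPM in KO libraries, again without overlap (-0.91 ± 0.20, edgeR, adjusted p = 0.0441). Tlr4, Tirap and Cd33 are also expressed by myeloid cells. The edgeR estimates of the 16 neutrophil markers ran from -1.01 (Cxcr2) to 0.03 (Camp), with a median of -0.61. Those of the 12 monocyte markers ran from -1.02 (Ccr2) to 0.28 (Adgre1), with a median of -0.51. None of these markers passed at adjusted p by edgeR over all 8 libraries. Without floxed 3, 11 of the 16 neutrophil and 9 of the 12 monocyte markers were lower in KO, against 8.64% of all genes. Within numbers 4 and 5, 16 of 16 and 9 of 12 were lower, against 16.5%. The part of these cells in the receptor values was not tested. Ager, the classical S100 receptor, was at 1.59 to 10.03 CPM in floxed and 7.28 to 10.1 CPM in KO libraries (0.48 ± 0.46, edgeR, adjusted p = 0.588). The 3 calls did not survive the loss of any single library other than floxed 3, with adjusted p of 0.0550 to 0.0872 for Bsg, 0.0578 to 0.127 for Tlr4 and 0.0870 to 0.1503 for Tirap. The log2 fold changes in these fits were 1.11 to 1.25 for Bsg, -1.06 to -0.79 for Tlr4 and -0.95 to -0.82 for Tirap. With the replicate block on numbers 3 to 5 the adjusted p was 0.133, 0.122 and 0.199 in the edgeR fit, against 0.220, 0.227 and 0.329 in the same 6 libraries without the block, and by limma-voom that of Tirap was 0.0545.

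The members did not share one profile over the 8 libraries. Likeness was measured as the root mean square difference of centred log2(CPM + 1), which is lower for more alike genes, as a description over 8 libraries that share depth and scaling. The closest pair was S100a10 and S100a13 (0.115), and S100a6 and S100a11 were farthest apart (0.685). S100a8 and S100a9 differed by 0.219. Among 9085 genes with a mean of at least 10 CPM, those most like S100a4 were Slpi (0.088), Gmfg-ps (0.094) and Camp (0.095). Slpi and Camp encode a protease inhibitor and the antimicrobial cathelicidin of granulocytes. S100a8 was most like Clec4a2 (0.128), Cd9 (0.141) and Ms4a3 (0.151), and S100a9 most like Ms4a4c (0.148), Cd52 (0.149) and Ifitm1 (0.156). S100a11 had the least close neighbours, Cpa3 (0.222), a mast cell and progenitor protease, Stfa2l1 (0.224) and Cd9 (0.268). These distances also depend on how much a gene itself varies. The root mean square of a member about its own mean ran from 0.314 (S100a1) to 0.744 (S100a11). S100a6 was most like Mir147 (0.105), Ffar2 (0.121) and Ifitm3 (0.140). S100a10 had S100a13 itself (0.115), Atp6v1g1 (0.127) and Ccl6 (0.129). S100a13 had Atp6v1g1 (0.098), Id2 (0.112) and Anp32a (0.112), and S100a1 had Gmpr (0.067), Hcfc1r1 (0.076) and Rsph3b (0.082).

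The remaining S100 genes of the files were nearly silent. S100a2, S100a3, S100a5, S100a7a, S100a14, S100a16, S100b, S100g and S100z, 9 genes, had 1 (S100a5) to 169 (S100a3) counts over all 8 libraries, and 4 were tested. S100a16, between S100a14 and S100a3 in the same cluster, was at 0.079 to 0.435 CPM in floxed and 0.512 to 1.17 CPM in KO libraries, without overlap. Genotypes did not overlap for 14.8% of all genes. The S100a16 log2 fold change of 1.55 ± 0.54 did not pass (edgeR, adjusted p = 0.136). Within numbers 4 and 5 it was 1.81 ± 0.47 (edgeR, adjusted p = 0.0153), where 16.3% of all genes were higher. With floxed 3 left out and the number group in the model it was 2.12 ± 0.47 (edgeR, adjusted p = 0.0032), where 9223 of 22094 genes passed. These values rest on 3 to 33 counts in a library. Near-silent genes lay among expressed ones in the cluster. S100a5, with 1 count, lies between S100a4 (10493 counts) and S100a6 (54927 counts), and S100a7a (80 counts) lies just ahead of S100a8 (1327486 counts).

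Counts of other transcripts of the members were compared with the main one, and those of S100a6 and S100a10 below differed between library numbers. A retained-intron transcript of S100a6 held 38.6% to 47.1% of the count of the gene's main transcript in numbers 1 to 3 and 49.5% to 54.8% in numbers 4 and 5. The shorter coding transcript of S100a10 held 78.8% to 83.0% in numbers 1 to 3 and 88.4% to 91.7% in numbers 4 and 5. Floxed and KO libraries overlapped in both shares. Both were picked after the values were seen, carry no test and have no share over all genes beside them. The remaining transcripts overlapped between number groups. For the retained-intron transcript of S100a10 the share was 19.1% to 25.1% in numbers 1 to 3 and 16.9% to 21.2% in numbers 4 and 5. The shorter coding transcript of S100a4 held 74.0% to 83.5% and 76.6% to 81.3%. These shares come from reads counted on overlapping spans, so they are not isoform levels.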

How the data were processed

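LT-HSC RNA of 8 mice (4 asrij floxed, 4 asrij KO) was sequenced on an Illumina system from NEBNext Ultra libraries. Per the study's methods and the submitters' processing notes, reads were checked with FastQC, trimmed with Trim Galore and aligned to GRCm38/mm10 transcripts with Bowtie2, and the authors deposited whole-number counts for 138930 Ensembl transcripts in each library, not normalized. The counter and strand use are not given in the sources used here. The fields of 7 files are split by tabs despite names for comma files, so a unit check recorded another unit for them, but whole numbers of at least 0 were found in all 8 deposited files and count tests were used.

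Transcripts were matched to GENCODE M21 (138789 of 138930), and a gene's count is the count of whichever of its transcripts had the highest total, because reads are counted on several transcripts and over introns. Library totals were 56661356 to 120858975 transcript counts. Genes were filtered with filterByExpr, scaled by TMM and compared in edgeR 4.0.16 under R 4.3.3 (glmQLFit, glmQLFTest), adjusted by Benjamini-Hochberg over all genes tested. CPM and the folds are computed here. Alternatives used limma 3.58.1 and DESeq2 1.42.0. All 3 tools were tested on simulated counts. In these no library stood apart as floxed 3 did, and the genotype simulations held no difference between number groups. How the tools behave in those settings was not tested. Python 3.11.15, numpy 2.4.6 and pandas 2.3.3 served for the rest. Promoter windows are from RefSeq (GRCm38.p6).

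The members, the lists and the number groups were chosen with earlier results of these data known. The named genes are the members, Ociad1, genes overlapping a member, other S100 symbols by counts, list genes past adjusted p 0.05 or otherwise up to 4 with the largest estimates, and the 3 genes most like each member with a mean of at least 10 CPM. Anxa2, Ager and the markers of the sorted cells were named beside these for their role, after their values had been seen.

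Pairing was checked by correlating deviations from the genotype means: r was 0.374 to 0.579 in the 3 same-number pairs from the labels, and averaged 0.458 between other numbers of the same number group and -0.454 across number groups. Mice of 1 number are different animals, and p-values measure the spread between mice.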

Additional observations from a re-analysis of the deposited data

Results flagged for a closer look

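In floxed mice, 1 of the 4 libraries stood far from the other 3 for 2 members. S100a1 in floxed 3 had a log2(CPM + 1) of 2.718, against 3.63 to 3.79 in the other floxed libraries. S100a9 in floxed 3 had 12.214, against 13.47 to 13.68. The gap took 0.850 and 0.858 of the whole range of the group. Over the 20 groups of 4 libraries examined, chance gives about 1 such result.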

How the results depend on the processing

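No S100a member was called in the genotype comparison under any of 23 alternatives, nor between number groups under any of 18, where the fold threshold applies. The member estimate farthest from 0 in the genotype alternatives was -1.02 (S100a11), short of that threshold. At adjusted p alone, 4 members were lower in KO with the number group as a covariate and floxed 3 left out, against 20.3% of all genes. No other genotype alternative gave any. Also at adjusted p alone, 2 members passed between number groups with no filter beyond 1 count and 3 without floxed 3. The number of genes called, 261, moved to 503 by DESeq2, 44 with the replicate block on numbers 3 to 5 (23 without a block on these libraries), 521 with the number group as a covariate and 1158 with that covariate and floxed 3 left out. It was 51 to 857 with 1 library left out, the highest without floxed 3. The block changed no member's call. The cause of these moves was not tested. Estimates near 0 changed sign. By limma-voom S100a4 had 0.0922 and S100a13 0.0827, and with the replicate block S100a4 had 0.10. Scaled by library size only, S100a1 had -0.14 and S100a10 -0.0934, and the median of all genes then shifted to -0.20. S100a13 had 0.0177 with no filter beyond 1 count, 0.0057 with at least 1 CPM in 4 libraries, 0.0262 for the sum over transcripts and 0.0237 for the shortest coding transcript. Without a block on numbers 3 to 5 S100a10 had -0.026. With the covariate and floxed 3 left out S100a1 had -0.15 and S100a10 -0.23. With 1 library left out, the log2 fold change ranged from -0.16 to 0.15 for S100a1, -0.32 to 0.12 for S100a4, -0.43 to 0.0742 for S100a6, -0.17 to 0.24 for S100a10 and -0.20 to 0.17 for S100a13, and stayed negative for S100a8 (-0.81 to -0.38), S100a9 (-0.78 to -0.41) and S100a11 (-0.80 to -0.17). By genomic span in place of spliced length, the rank of a member by CPM per kilobase moved in 10 of 16 cases. S100a8 came 1 and S100a9 2 in both genotypes, S100a1 7 and S100a13 8 in both, and in floxed mice S100a6 came 3 and S100a11 4. Each of the 8 members had at least 293 counts in each library, and depth limits the other S100 genes, most of them under 1 CPM.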
